A study of Vitis vinifera with 74 samples.

Results

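Grapevine buds sprayed with abscisic acid (ABA) were compared at 72 h with such buds at 48 h after the spray. The comparison uses the raw bud counts of the 72 h and 48 h ABA groups, 3 count columns each, which is 6 of the 74 samples in the series. The columns of a group were added up, so the comparison is of 1 library at 72 h with 1 library at 48 h, and its differences have no replicate check. It asks what the ABA buds did in the last day of sampling, beside water-sprayed control buds over the same day.

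Both groups were buds of the cultivar Cabernet Franc on single-node cuttings, cut from dormant canes of field-grown vines and held in cups of water in a growth room at 22 °C with 16 h of light and 8 h of dark. Each cutting was sprayed to runoff at the woolly bud stage. The ABA groups at 72 h and 48 h received 5 mM S-ABA (1322 mg per litre, diluted from the product ProTone SG), and the control groups at 72 h and 48 h received deionized water. Cuttings were randomized into separate sets for the sampling times, so 72 h and 48 h are different cuttings and not the same buds followed over time. The number of buds in a library and the vines behind it are not given in the labels. ABA and control buds at 6, 12 and 24 h, and buds taken before treatment, are used below as further points of the same experiment. The samples titled 72 h carry the code 75 in their descriptions, and the time in the title is used.

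ABA is the plant hormone of drought, seed and bud dormancy and cold responses. It binds soluble receptors that then hold back a group of protein phosphatases, which frees protein kinases to activate the transcription factors of ABA-responsive genes. Plant cells remove ABA by oxidizing it and by attaching sugars to it. Deacclimation is the loss of freezing tolerance in overwintering buds as they resume growth in warmth. The deposited tables name genes by identifiers of the form Vitvi07g00292 with no gene names, and a RefSeq gene table held none of the 42413 identifiers, so genes are described by how they behaved and the tissue could not be checked against marker genes. In whole buds, fewer cells of a type and less RNA per cell cannot be told apart.

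The summed ABA libraries held 4938159 counts at 72 h and 6492316 counts at 48 h. The control libraries held 5345727 counts at 72 h and 7698363 counts at 48 h, the 48 h control having 4 columns where the others have 3. Columns of the same ABA group differed by little more than sampling noise: chi-square divided by its degrees of freedom lay between 1.04 and 1.08 in the 72 h group and between 1.04 and 1.14 in the 48 h group. The columns of the 48 h control stood further apart, at 1.34 to 2.00. Since the labels describe repeat sequencing of each library, the spread between columns is treated as technical. This is less certain for the 48 h control. Levels are given in CPM, the counts of a gene scaled to a common library size by edgeR's TMM method. This kit reads 1 short tag from the 3′ end of a transcript, so levels are compared within a gene and not between genes. Intervals cover counting error only.

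ABA buds at 72 h and 48 h differed by at least 2-fold in 2887 of 16214 genes. Of these, 1392 were higher at 72 h and 1495 were lower, which is 8.59% and 9.22% of all genes. The lower genes had moved further: 312 genes were at least 4-fold lower and 105 at least 4-fold higher, and 33 were at least 8-fold lower and 12 at least 8-fold higher. The median log2 difference was 1.26 among the higher genes and -1.48 among the lower genes, against 0.06 over all genes. The 95% counting interval lay above 1 for 1320 of the higher genes and below 1 for 1459 of the lower genes.

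Single columns showed the same size of difference. Any 72 h ABA column stood at least 2-fold from any 48 h ABA column in 3019 to 3147 genes, with a median of 3124 over the 9 pairs. Columns of the same group stood as far apart in 620 to 700 genes at 72 h and in 540 to 562 genes at 48 h. The difference between the times thus exceeded the spread of columns within a time in every pair, a spread treated as technical.

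Control buds differed less over the same day. At 72 h, 886 genes were at least 2-fold higher than at 48 h (5.46% of 16214) and 517 were at least 2-fold lower (3.19%), 1403 in all. At least 4-fold differences were found in 44 genes that were higher and 31 that were lower. Single control columns of 72 h and 48 h stood at least 2-fold apart in 1651 to 2511 genes, below every ABA pair.

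The ABA step (the log2 level at 72 h minus that at 48 h in ABA buds) was set beside the control step (the same difference in control buds), with which it shares no library. Of the genes at least 2-fold higher in the ABA step, 128 were also higher in the control step, which is 9.20% of the ABA genes, against 5.46% of all genes, and 14.4% of the control genes, against 8.59% of all genes. For lower genes the number was 47, or 3.14% of the ABA genes, against 3.19% of all genes, and 9.09% of the control genes, against 9.22% of all genes. The lower genes of the steps thus coincided about as often as the background share. Another 109 genes were higher in the ABA step and lower in the control step. That is 7.83% of the higher ABA genes, against 3.19% of all genes, and 21.1% of the lower control genes, against 8.59% of all genes. The reverse pair, lower in the ABA step and higher in the control step, held 100 genes. These are 6.69% of the lower ABA genes, against 5.46% of all genes, and 11.3% of the higher control genes, against 9.22% of all genes.

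**Figure D1:**
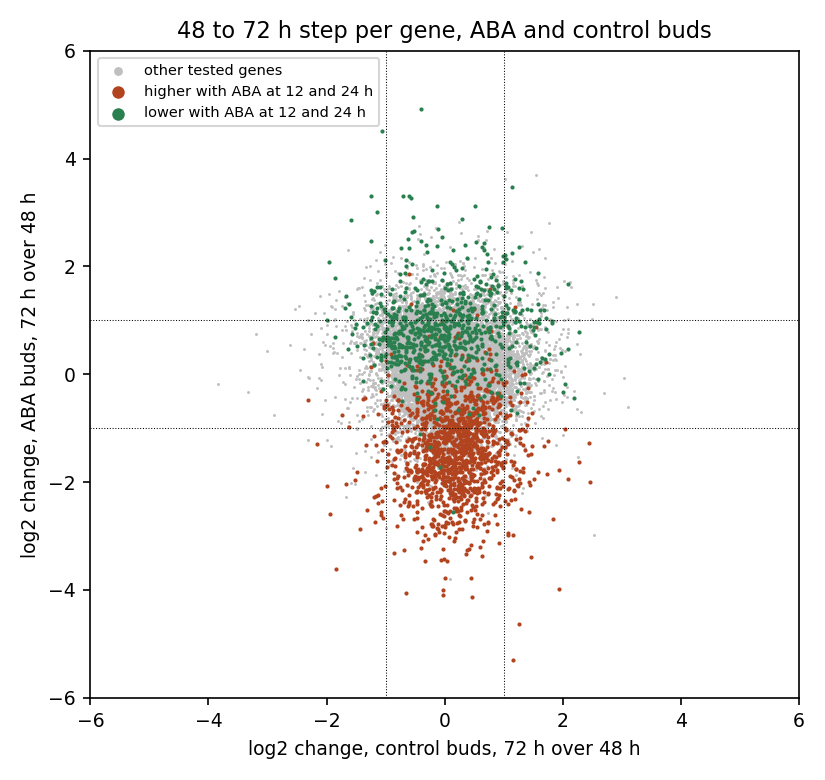
Log2 step of each gene in ABA buds, 72 h minus 48 h, against the log2 step of the same gene in control buds, with the genes that early ABA had raised or lowered drawn in colour. The genes raised early lie mostly below 0 in the ABA step (median -1.41) and near 0 in the control step (median 0.17).

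Counts were less concentrated in a few genes in ABA buds at 72 h than at 48 h. The most abundant gene held 0.989% of counts in ABA buds at 72 h and 3.28% at 48 h, and the top 10 genes held 6.72% at 72 h and 12.6% at 48 h. In control buds the top 10 genes held 6.55% at 72 h and 5.42% at 48 h. Over all genes lower at 72 h by any amount, the losses summed to 288569 CPM, of which 3 genes made up 22.0%. The gains of all genes higher by any amount summed to 166507 CPM, of which 3 genes made up 5.27%. The losses thus drew more on a few abundant genes than the gains did.

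A like tilt appears in the 2-fold calls across abundance classes. Among 1739 genes averaging at least 100 CPM over these ABA libraries, 14.7% were at least 2-fold lower at 72 h and 5.29% were at least 2-fold higher. Among 2970 genes averaging 1 to 5 CPM, 7.31% were lower and 14.9% were higher. Among the 16214 genes kept by the count filter, 2 had at least 10 counts at 72 h and 0 at 48 h, at most 22 counts. The reverse pattern was found in 0 genes. The filter removes genes with counts in only a few libraries, so how often genes were switched fully on or off cannot be read from this. Low counts make 2-fold differences easier to reach, and their part in the higher share of low genes was not tested.

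The 48 to 72 h step ran against the early response to ABA. The genes first taken were those at least 2-fold higher in ABA than in control buds at both 12 and 24 h, 1360 genes or 8.39% of those tested. None of the libraries that chose them enters the step. Of these early raised genes, 945 (69.5%) were at least 2-fold lower in ABA buds at 72 h than at 48 h, against 9.22% of all genes. Only 7 were at least 2-fold higher. A lower level by any amount was seen in 1301 (95.7%), against 45.9% of all genes, and the median log2 step was -1.41 with quartiles of -1.91 and -0.87.

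In control buds the same genes had a median step of 0.17, with 91 at least 2-fold higher (6.69%) and 40 at least 2-fold lower (2.94%) at 72 h, near the 5.46% and 3.19% of all genes. Their ABA level therefore moved while their control level stayed near where it was. The median log2 difference of ABA from control buds was 1.21 at 6 h, 1.93 at 48 h and 0.44 at 72 h. Still at least 2-fold above control were 420 of the genes at 72 h, against 1113 at 48 h. Set against buds before treatment, their median log2 level was 0.95 higher in ABA buds at 72 h and 2.29 higher at 48 h.

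Genes lowered by early ABA moved the other way, by less. There were 779 genes at least 2-fold lower in ABA than in control buds at both 12 and 24 h (4.80% of those tested). Of these, 282 (36.2%) were at least 2-fold higher in ABA buds at 72 h than at 48 h, against 8.59% of all genes, and 4 were at least 2-fold lower. An increase of any size was seen in 705 (90.5%), against 54.1% of all genes, with a median log2 step of 0.79 and quartiles of 0.39 and 1.18. The median control step of these genes was -0.04.

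The median log2 difference of the early lowered genes from control was -0.72 at 6 h, -1.06 at 48 h and -0.22 at 72 h. Still at least 2-fold below control were 173 of the genes at 72 h, against 426 at 48 h. Relative to buds before treatment their median was -0.40 in ABA buds at 72 h and -1.28 at 48 h. Both early groups thus came closer to the control buds and to the starting level, without all of their members reaching either.

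**Figure D2:**
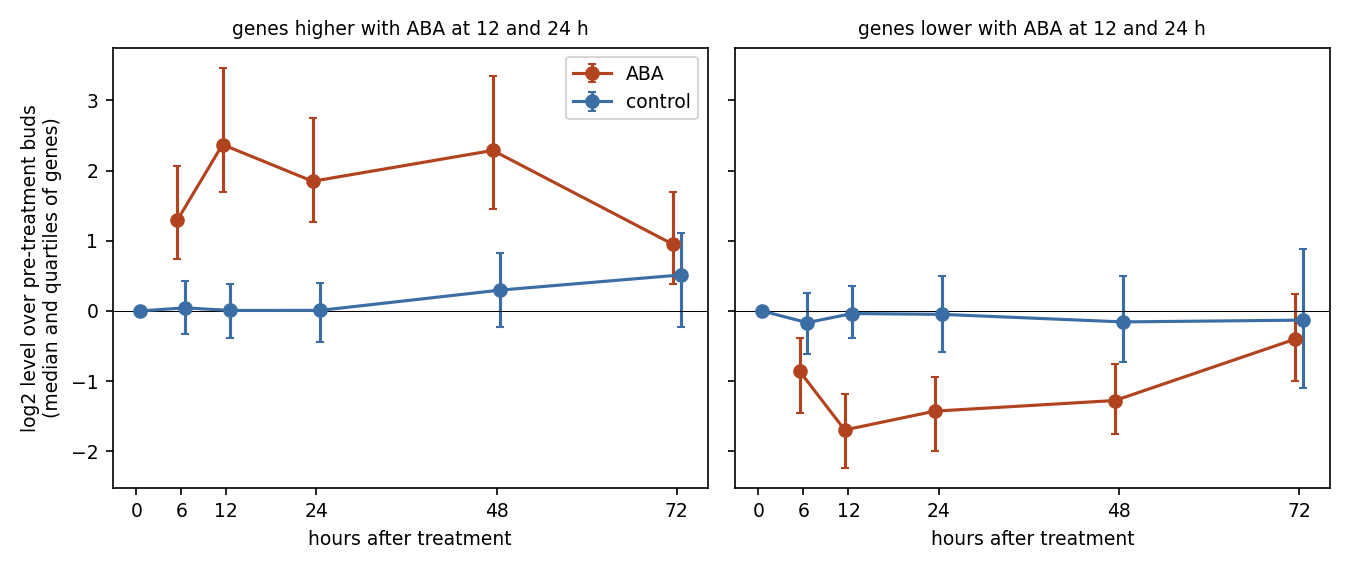
Median log2 level relative to buds before treatment, over 6, 12, 24, 48 and 72 h, for the early raised and the early lowered genes in ABA and control buds. In ABA buds the early raised genes stand at 0.95 at 72 h and 2.29 at 48 h, while in control buds they stand at 0.51 at 72 h and 0.30 at 48 h.

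The members of the early lists did not all end in the same place. Of the 1360 early raised genes, 598 (44.0%) moved back by at least 2-fold and ended within 2-fold of the 72 h control. Another 317 (23.3%) moved back by at least 2-fold but were still at least 2-fold above control. A further 30 (2.21%) moved back past the control to at least 2-fold below it. Of the rest, 302 (22.2%) stood within 2-fold of control after a smaller step, 103 (7.57%) were still at least 2-fold above it, and 10 (0.735%) were at least 2-fold below it.

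Of the 779 early lowered genes, 182 (23.4%) moved back by at least 2-fold to within 2-fold of control, and 69 (8.86%) moved back as far while still at least 2-fold below it. Another 31 (3.98%) ended at least 2-fold above control. The largest share, 379 genes (48.7%), stood within 2-fold of control after a step under 2-fold, and 104 (13.4%) were still at least 2-fold below. The remaining 14 (1.80%) ended at least 2-fold above control after a smaller step.

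What was left at 72 h followed the size of the early effect. Early raised genes with a mean effect of 2- to 4-fold at 12 and 24 h (682 genes) had a median log2 difference from control of 0.17 at 72 h and 1.34 at 48 h, and 95 of them (13.9%) were still at least 2-fold above control at 72 h. Those raised 4- to 8-fold (340 genes) had a median of 0.50 at 72 h and 2.20 at 48 h, with 28.5% still at least 2-fold above. For 8- to 16-fold (180 genes) the medians were 1.26 at 72 h and 3.14 at 48 h, with 54.4% still above.

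The 158 genes raised at least 16-fold kept the largest difference. Their median was 2.13 at 72 h and 4.64 at 48 h, and 130 of them (82.3%) were still at least 2-fold above control. The step itself also grew with the early effect, with medians of -1.05, -1.60, -1.82 and -2.34 from the weakest to the strongest class. The genes that ABA had raised most thus had the largest log2 decreases and still stood highest over control at 72 h.

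**Figure D3:**
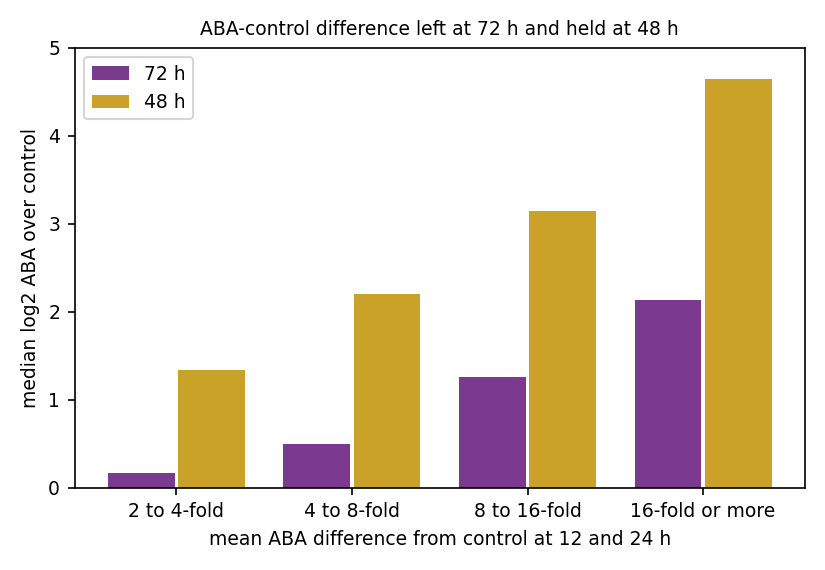
Median log2 ratio of ABA to control buds at 72 h and at 48 h, for early raised genes in 4 classes by their mean effect at 12 and 24 h. The bars at 72 h are below those at 48 h in each class, from 0.17 beside 1.34 in the weakest class to 2.13 beside 4.64 in the strongest.

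Early lowered genes showed a less clear order. With a mean early effect of 2- to 4-fold (666 genes), 21.9% were still at least 2-fold below control at 72 h. The 98 genes lowered 4- to 8-fold had 23.5% still below, and of 15 genes lowered 8- to 16-fold, 4 (26.7%) were. The median steps of these classes were 0.73, 1.08 and 2.48. No early lowered gene had a mean effect of 16-fold or more.

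The time at which an early raised gene was highest in ABA buds was 6 h for 22 genes, 12 h for 656 (48.2%), 24 h for 89, 48 h for 580 (42.6%) and 72 h for 13. Early lowered genes had their lowest ABA level at 6 h for 47 genes, 12 h for 366 (47.0%), 24 h for 134, 48 h for 223 (28.6%) and 72 h for 9. In few genes of either list was the 72 h library thus the one furthest out, and the 24 h library, which helped to choose both lists, was less often so than the 48 h library.

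A list from the leaf experiment of the series was also followed. There, leaves of potted greenhouse vines of the same cultivar were sprayed with S-ABA from the same product, at a lower concentration than the buds, in water with the surfactant Tween-20, and control leaves with water and the surfactant. In leaves sprayed with ABA, 264 of 13378 genes (1.97%) rose at 24 h against control leaves, and 158 (1.18%) fell, with 4 libraries a group, by edgeR's quasi-likelihood test at an adjusted p under 0.05. The leaf list shares no library with the buds. Of the 24 h leaf libraries, ABA replicate 1 carries another flow cell identifier than the rest in its description code. Without the libraries of that second flow cell, 271 risen and 123 fallen leaf genes were measured in buds, against 252 and 152 with them. Of the 252 risen leaf genes measured in buds, 143 (56.7%) were at least 2-fold lower in ABA buds at 72 h than at 48 h, against 9.22% of all genes. Only 1 was at least 2-fold higher, and the median log2 step was -1.18. The median control step of these genes was 0.22. The number of lower members was 157 without the second flow cell. It was 94 when leaf ABA replicate 2 was left out (of 174 risen leaf genes measured in buds). It was 88 when leaf control replicate 2 was left out (of 145 such genes).

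Leaf genes that fell with ABA moved less in buds. Of 152 measured there, 14 (9.21%) were at least 2-fold higher in ABA buds at 72 h than at 48 h, close to the 8.59% of all genes, and 5 were at least 2-fold lower. A higher level by any amount was seen in 119 (78.3%), against 54.1% of all genes. The median step was 0.36, against 0.06 over all genes. The list was thus displaced upward as a whole, with few members past 2-fold. The 152 fallen leaf genes measured in buds became 85, 95 and 96 when leaf ABA replicate 1, 2 or 4 was left out. They became 84 and 87 when leaf control replicate 2 or 4 was left out.

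Genes that move in control buds over the same days were set beside these. Levels at least 2-fold above the pre-treatment buds in control buds at both 48 and 72 h were found in 1194 genes (7.36% of those tested), and at least 2-fold below in 614 (3.79%). The control libraries of 48 and 72 h chose these lists, so their control steps, and in part their differences between ABA and control buds, are set by the rule and are given as a description. In ABA buds, 230 of the genes that control buds raised were at least 2-fold higher at 72 h than at 48 h and 230 were at least 2-fold lower, 19.3% each, against 8.59% and 9.22% of all genes, with a median step of 0.15. When replicate 2 of every bud group was left out, 153 of 957 such genes were at least 2-fold higher.

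Most of the lower genes among them, and a smaller part of the higher ones, were in the early lists. The 219 that were also early raised by ABA included 170 at least 2-fold lower and 0 at least 2-fold higher, with a median step of -1.57. The 92 that were also early lowered by ABA included 58 at least 2-fold higher and 1 at least 2-fold lower, with a median step of 1.21. The other 883 had 172 higher and 59 lower, with a median of 0.33.

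For the control-raised genes the median log2 difference of ABA from control was -0.81 at 72 h and -0.58 at 48 h, and 515 were at least 2-fold below control at 72 h, against 445 at 48 h. The subset early lowered by ABA had medians of -1.81 at 72 h and -2.52 at 48 h. For the 883 genes in neither early list the medians were -0.92 at 72 h and -0.78 at 48 h. These values rest in part on the control libraries that chose the list, so no direction is read from them.

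Of the 614 genes that control buds lowered, 43 (7.00%) were at least 2-fold higher and 78 (12.7%) at least 2-fold lower in ABA buds at 72 h than at 48 h, with a median step of 0.17. Over all genes the shares were 8.59% and 9.22%, which these lie near. In the list, 68 genes had been early raised by ABA and contributed 48 of the lower genes. The median log2 difference of ABA from control over the list was 0.62 at 72 h and -0.02 at 48 h, and 206 genes were at least 2-fold above control at 72 h, against 122 at 48 h. The low control levels that chose the list enter these differences, so no direction is read from them either.

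Seen from the genes that moved, the early response covers most of the lower genes and a smaller share of the higher ones. Of the 1495 genes at least 2-fold lower at 72 h, 945 (63.2%) were early raised, 4 were early lowered and 546 were in neither list. Of the 1392 higher genes, 282 (20.3%) were early lowered, 7 were early raised and 1103 were in neither list. Genes outside both lists numbered 14075, of which 7.84% were at least 2-fold higher and 3.88% at least 2-fold lower, against 8.59% and 9.22% of all genes.

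In the median, the genes outside the lists that moved had an early difference of the opposite sign. Genes at least 2-fold from control in 1 direction at both 12 and 24 h are left out here, so the rule limits its size. The 1103 higher genes had a median log2 difference from control of -0.63 at 12 h and -0.48 at 24 h, and 462 of them were at least 2-fold lower than control at one of these times, against 30 at least 2-fold higher. The 546 lower genes had medians of 0.83 at 12 h and 0.63 at 24 h, with 293 at least 2-fold higher at one of these times and 21 at least 2-fold lower. Over all 16214 genes, early lists included, the medians were -0.04 at 12 h and -0.01 at 24 h. Of these, 2445 were at least 2-fold lower and 2549 higher than control at 12 h, and 1253 and 1749 at 24 h. These values include the early lists and count each time alone, so they are no background for the counts above. The share over all genes outside the lists is not given.

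The genes that moved were less often near the control or the starting level at 72 h than genes at large. They were chosen by their 72 h and 48 h ABA levels, and the same 72 h level enters these shares, so the shares only describe them. Of all 16214 genes, 84.8% were within 2-fold of the 72 h control and 81.3% within 2-fold of buds before treatment. Of the 1392 higher genes, 965 (69.3%) were within 2-fold of the 72 h control and 1052 (75.6%) within 2-fold of buds before treatment. Their median log2 level against buds before treatment was 0.39 at 72 h and -0.96 at 48 h. Of the 1495 lower genes, 1029 (68.8%) were within 2-fold of the 72 h control and 872 (58.3%) within 2-fold of buds before treatment, while 527 were still at least 2-fold above that level. Their medians were 0.65 at 72 h and 2.14 at 48 h.

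Fewer genes separated ABA from control buds at 72 h than at 48 h. At 72 h, 1280 genes (7.89%) were at least 2-fold higher in ABA than in control buds and 1183 (7.30%) were lower. At 48 h, 2058 genes (12.7%) were higher in ABA buds and 1830 (11.3%) were lower. The ABA step was at least 2-fold below the control step in 2464 genes (15.2%) and at least 2-fold above it in 2267 (14.0%).

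These changes in the gap came more often from the ABA buds than from the controls. Among the 2464 genes, the ABA buds alone moved by at least 2-fold in 1176 (47.7%), the control buds alone in 409 (16.6%), both in 100 and neither in 779. Among the 2267 genes, the ABA buds alone moved in 797 (35.2%), the control buds alone in 301 (13.3%), both in 109 and neither in 1060. The gap between ABA and control buds was smaller at 72 h than at 48 h in 1916 (77.8%) of the 2464 genes and in 1395 (61.5%) of the 2267 genes. The rest had a wider gap at 72 h. Both sets were chosen by the change of the gap itself, so these shares only describe them, and the share over all genes is not given.

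Set against every other bud library, the 72 h ABA library had fewest genes at least 2-fold apart from the 48 h control. There were 1679 such genes, 1089 higher and 590 lower in the ABA buds, with a median absolute log2 difference of 0.34 over all genes. The 12 h control stood at 2412 genes, the 72 h control at 2463 and the 48 h ABA library at 2887. The buds before treatment stood at 3031 and the 12 h ABA library, the furthest, at 4359.

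The 48 h ABA library had another order. It stood nearest to the 24 h ABA library, at 2285 genes, then to the 12 h ABA library, at 2863, and to the 72 h ABA library, at 2887. The 48 h control stood at 3888 genes, the 72 h control at 4031, buds before treatment at 5170 and the 24 h control, the furthest, at 5293. The 48 h and 72 h controls stood 1403 genes apart. These counts share the library they start from and depend on depth, and the 48 h control has the most columns. Over the 10234 genes with at least 10 CPM the 72 h ABA library still stood nearest to the 48 h control of all bud libraries, at 728 genes, against 1089 for the 12 h control, 1214 for the 72 h control and 1592 for the 48 h ABA library.

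**Figure D4:**
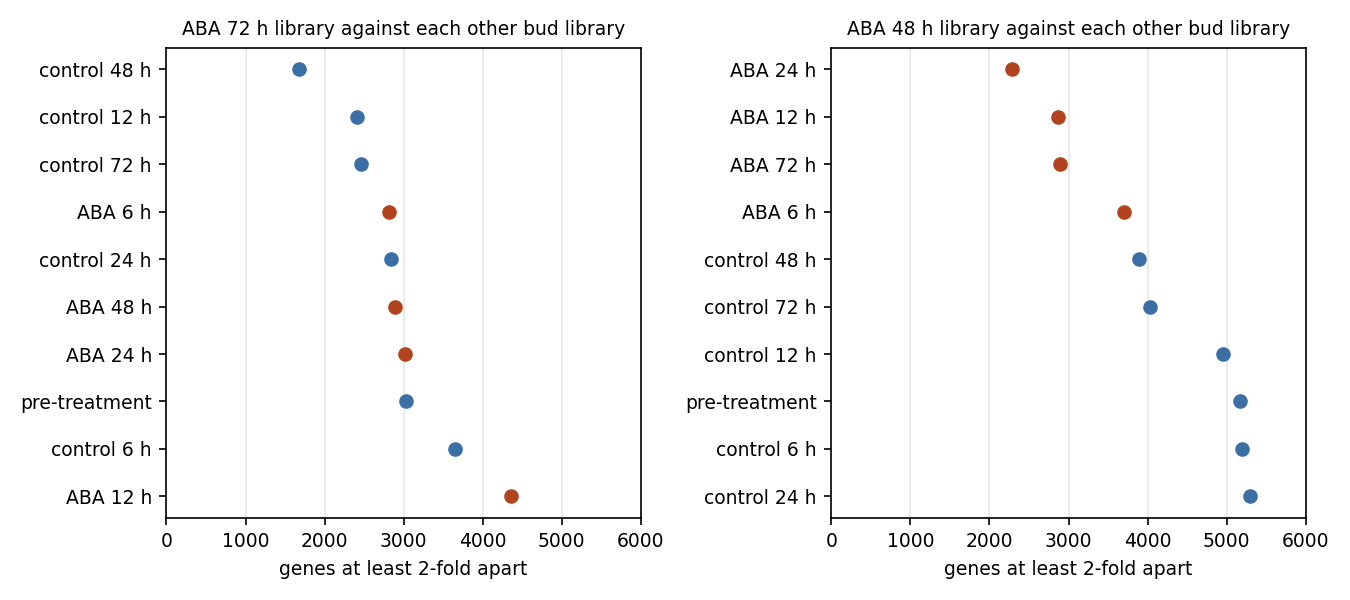
Number of genes at least 2-fold apart between the 72 h ABA library and every other bud library, and between the 48 h ABA library and every other bud library. The 72 h ABA library is nearest to the 48 h control (1679 genes), and the 48 h ABA library is nearest to the 24 h ABA library (2285 genes).

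Single genes show these patterns in the columns. For each direction, the gene with the largest fold and the gene with the largest CPM difference were taken among genes averaging at least 5 CPM whose 72 h and 48 h columns did not overlap. The choice was made on the step itself, so these values describe the step and are no support for it. None of these genes has a name in the deposited tables.

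Vitvi07g00292 had the largest fold increase. Its 72 h ABA columns held 421, 422 and 452 CPM, against 16.5, 10.9 and 14.6 CPM in the 48 h ABA columns. The summed counts were 2393 at 72 h and 89 at 48 h, which is 31.1-fold more CPM at 72 h (95% counting interval from 25.1 to 38.8) and a log2 step of 4.92. In control buds it held 209 CPM at 72 h and 276 CPM at 48 h.

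The course of Vitvi07g00292 before 48 h was low in ABA buds and high in control buds. ABA buds held 38.4 CPM at 6 h, 25.9 CPM at 12 h and 21.0 CPM at 24 h. Control buds held 249, 244 and 313 CPM at these times, and buds before treatment held 88.0 CPM. At 72 h the ABA columns were all above the control columns, which held 212, 207 and 210 CPM, with a log2 difference from control of 1.04 at 72 h and -4.28 at 48 h. It was one of the early lowered genes and one of those that ended at least 2-fold above control.

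Vitvi05g00170 had the largest fold decrease. Its 72 h ABA columns held 4.98, 4.93 and 4.66 CPM, against 201, 211 and 203 CPM in the 48 h ABA columns. The summed counts were 27 at 72 h and 1316 at 48 h, a level 42.2-fold lower at 72 h with a 95% counting interval of 28.9 to 64.3 and a log2 step of -5.31. In control buds it held 4.27 CPM at 72 h (24 counts) and 1.73 CPM at 48 h (14 counts).

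Vitvi05g00170 had built up over the earlier ABA times, with 1.23 CPM at 6 h, 21.6 CPM at 12 h and 73.0 CPM at 24 h. Buds before treatment had 2 counts. At 72 h the ABA columns, from 4.66 to 4.98 CPM, overlapped the control columns, which held 4.40, 4.90 and 3.40 CPM. The gene was early raised in buds. In leaves at 24 h its log2 difference between ABA and control was 2.08, with an adjusted p of 0.0630 by edgeR's quasi-likelihood test, so it did not pass there.

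Vitvi19g00581 had the largest loss in CPM. Its 72 h ABA columns held 8689, 8481 and 9281 CPM, against 33464, 32638 and 33651 CPM in the 48 h ABA columns. The level was 3.78-fold lower at 72 h, with a 95% counting interval of 3.74 to 3.81 and a log2 step of -1.92. In control buds it held 5450 CPM at 72 h and 4431 CPM at 48 h.

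The ABA level of Vitvi19g00581 was highest at 12 h, with 20453 CPM at 6 h, 59793 CPM at 12 h and 37551 CPM at 24 h. Buds before treatment held 4590 CPM. The 72 h ABA columns were still above the 72 h control columns, which held 5333, 5244 and 5808 CPM. In leaves at 24 h its log2 difference of 0.89 had an adjusted p of 0.361 by edgeR's quasi-likelihood test.

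Vitvi03g01899 had the largest gain in CPM. Its 72 h ABA columns held 9184, 8603 and 7941 CPM, against 4075, 3850 and 3393 CPM in the 48 h ABA columns. The level was 2.27-fold higher at 72 h (95% counting interval from 2.24 to 2.31), a log2 step of 1.19. In control buds it held 4788 CPM at 72 h and 3483 CPM at 48 h, a log2 step of 0.46 in the same direction.

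Vitvi03g01899 belonged to neither early list. ABA buds held 1580 CPM at 6 h, 1810 CPM at 12 h and 1313 CPM at 24 h, and control buds held 810, 1804 and 1527 CPM. Buds before treatment held 3321 CPM. The gene was thus higher at 48 and 72 h than at 6 to 24 h under both treatments, and at 72 h the ABA columns were all above the control columns of 5200, 4722 and 4439 CPM. In leaves at 24 h its log2 difference of 1.83 had an adjusted p of 0.232 by edgeR's quasi-likelihood test.

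**Figure D5:**
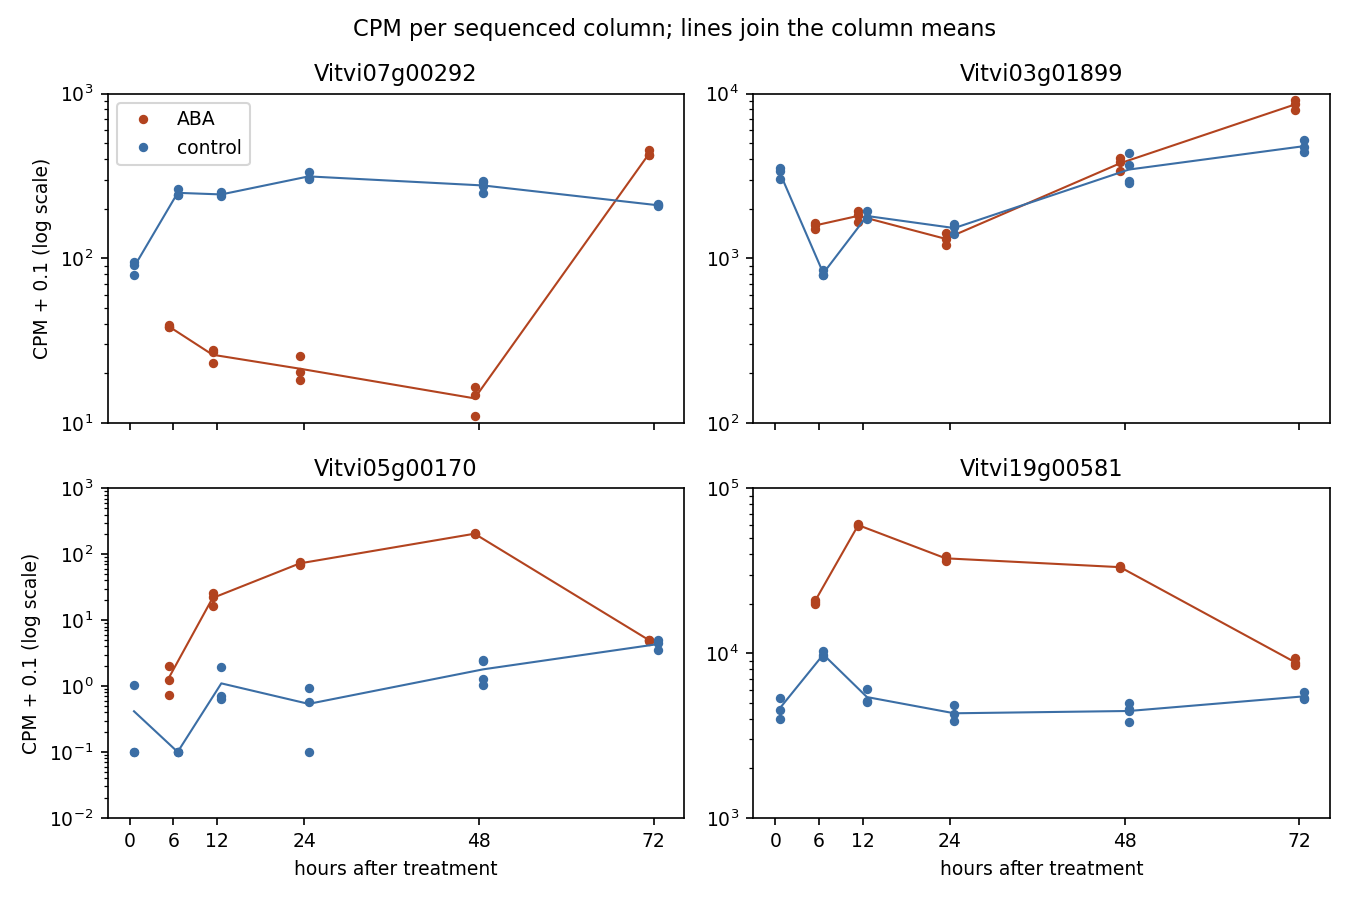
CPM in every count column (log scale, with 0.1 added) against hours after treatment for Vitvi07g00292, Vitvi03g01899, Vitvi05g00170 and Vitvi19g00581, in ABA and control buds, with buds before treatment drawn at 0 h in the control colour. Lines join column means. The ABA line changes direction after 48 h for Vitvi07g00292 and Vitvi05g00170, while for Vitvi19g00581 it falls from 12 h onward.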

How the data were processed

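The deposited bud and leaf tables hold raw read counts per gene as the authors made them, from QuantSeq 3′ libraries sequenced on a NextSeq500 (75 bp reads in buds), per the labels' protocols. FastQC, STAR and DESeq2 are listed without version or role, per the submitters' processing notes. Not given in the sources used here are the genome build, the annotation, and whether counting used strand or shared tags, so genes with close copies or antisense partners are uncertain.

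A test over bud columns as replicates had been planned. In every bud group but the 48 h control the columns were close to sampling noise (chi-square over genes with 20 or more counts in both columns together). Columns of a group were therefore summed and counted as 1 sample, with no p-value, and the 48 h control, whose columns stood further apart, was treated in the same way. Genes were kept by filterByExpr (minimum count 10), which left 16214 bud genes. Log2 CPM used TMM scaling and a prior count of 2 (R 4.3.3, edgeR 4.0.16, limma 3.58.1). A gene at least 2-fold apart was counted. Leaves were tested with edgeR's quasi-likelihood test and Benjamini-Hochberg adjustment in a model of 9 groups. The members and lists were chosen with earlier results of these data known. The named genes are, per direction, the largest fold and the largest CPM difference among genes averaging at least 5 CPM whose columns do not overlap. The scripts were tested on simulated data. Alternatives included RLE size factors, DESeq2 (1.42.0), other filters and prior counts, and leaving out columns.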

Additional observations from a re-analysis of the deposited data

Results flagged for a closer look

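Several results moved in opposite directions in ABA and control buds between 48 and 72 h. Each is given as the ABA step minus the control step on the log2 scale, and none of these differences was tested, since each group was 1 summed library. For Vitvi07g00292 the difference of the steps was 5.32. For Vitvi05g00170 it was -6.47, with control levels of only 24 counts at 72 h and 14 counts at 48 h. For Vitvi19g00581 it was -2.22. For the lists the difference is between the median ABA step and the median control step: it was -1.57 over the 1360 genes raised by early ABA and 0.83 over the 779 genes lowered by early ABA. The control steps of both lists were near 0 in the median, at 0.17 and -0.04, so the opposite direction of the control buds was slight.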

How the results depend on the processing

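No median step of a list or step of a named gene changed sign in ABA buds under any alternative for which it was computed. Runs with columns as replicates, or without single columns of the 48 h control or single leaf libraries, gave counts only. Runs without single ABA columns gave no list medians. RLE size factors gave 1244 higher and 1589 lower genes in the ABA step, so that 43.9% of calls were higher, against 48.2% with TMM. Without a count filter the ABA step had 2277 higher and 2363 lower genes, the control step 1689 and 1090, and the difference of the steps 3610 higher and 3872 lower. The 72 h ABA library then stood 3179 genes from the 48 h control, 4481 from the 72 h control and 4366 from the 12 h control. With genes of at least 10 CPM only, a choice made after seeing the data, the ABA step had 685 and 907 genes, the control step 314 and 258, and the difference 1375 and 1414. The early lowered list then had 159 higher members, the control-raised list 114 and the control-lowered list 37 lower members, and the distances were 728, 1214 and 1089 genes. With lists cut at 4-fold, 447 of 490 early raised genes were at least 2-fold lower and 27 of 39 early lowered genes at least 2-fold higher. With a prior count of 5 the control-lowered list had 51 lower members.

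Leaving out columns gave 1064 to 1418 higher and 1391 to 1606 lower genes in the ABA step, 710 to 1002 and 461 to 599 in the control step, and 2108 to 2261 higher and 2270 to 2470 lower in the difference. The early raised list had 840 to 926 lower members, the early lowered list 218 to 275 higher members, the control-raised list 153 to 225 and the control-lowered list 60 to 72. The control-raised list had its 153 without replicate 2, when it held 957 genes. The leaf list had 88 to 143 lower members, fewest without leaf control replicate 2. Distances were 1433 to 1761 genes from the 48 h control, 2155 to 2417 from the 72 h control and 2121 to 2381 from the 12 h control.

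Columns were also run as replicates, although their spread is treated as technical. In the ABA step edgeR then called 1242 higher and 1563 lower genes past 2-fold, and DESeq2 called 1118 and 1525. With the replicate number as a block edgeR called 1239 and 1565 in the ABA step, and 922 and 518 in the control step, against 813 and 500 without it. Columns of the same number had correlated deviations of 0.014 to 0.024 in ABA buds and 0.036 to 0.058 in control buds. These are under the 0.1 asked of a pairing, so none was taken. Each of columns 1 to 3 correlated best with its own number, a hint from the data and not from the design. Each bud group was treated as 1 library, so no alternative is taken to measure the spread between buds. For the 48 h control, whose columns stood at 1.34 to 2.00 in chi-square per degree of freedom, this treatment is less certain.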

Other observations

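Some genes had their highest or lowest level in the 72 h ABA library. By at least 2-fold over every other bud library, 16 genes were highest and 10 lowest there. In the 48 h ABA library 147 genes were highest and 50 lowest by this measure, and in the 12 h ABA library 217 and 132. In the 72 h control library 204 genes were highest and 101 lowest. The 72 h ABA buds thus held few genes at a level that no other bud library came near, and the 72 h control buds held many.

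Genes at least 2-fold apart in ABA buds were found on every chromosome. The number after the species code in an identifier gives the chromosome in this naming scheme. Over chromosomes 1 to 19, the share of genes at least 2-fold higher at 72 h ran from 6.51% on chromosome 1 to 9.84% on chromosome 7. The share at least 2-fold lower ran from 6.66% on chromosome 15 to 11.1% on chromosome 16.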
